A study of Homo sapiens with 6 samples.

Results

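The genes described here are markers used to recognise stem-like and surface-defined cells in ovarian cancer. They were taken as the probes whose gene name on the array is EPCAM, TACSTD1, CD24, CD44, PROM1, KIT, ALDH1A1, ALDH1A3, SOX2 or THY1. Of these 10 symbols, TACSTD1, an older name of EPCAM, carried no probe, which left 9 genes of the 29123 gene names on the array and 11 of its 41000 probes. SOX2 and ALDH1A3 had 2 probes each, and the single probes of CD44 and KIT were each printed at 10 spots. The names are those of known markers, and the rule uses no value from these arrays, although the markers were chosen with earlier results of these data known.

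Gene expression was compared on 6 arrays of RNA from SKOV3 and A2780s cells, established human ovarian adenocarcinoma lines grown as adherent cultures, to find which genes change with the amount of Hic-5, the focal adhesion scaffold protein encoded by TGFB1I1. In SKOV3, the stable puromycin-selected clones sh-S1 and sh-S2, which carry an shRNA against Hic-5 in the pLKO.1-puro vector, were each hybridized with the Ctrl clone, which carries the same vector with a scramble sequence. In A2780s, the neomycin-selected clone pCMV-Hic-5, which expresses Myc-DDK-tagged Hic-5 from pCMV6, was hybridized with a Ctrl clone that carries the empty vector. Each pair of RNAs was hybridized on 2 arrays with the dyes Cy3 and Cy5 exchanged, so there were 5 RNAs, each from 1 clone, and 12 channels. Both arrays of a pair count as 1 replicate, which gives 2 clones in SKOV3, measured against a common Ctrl RNA, and 1 clone in A2780s.

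CD44 is the main cell surface receptor for hyaluronan, and CD24 is a small, heavily glycosylated surface protein anchored by a lipid. EPCAM is an adhesion molecule of epithelial cells, PROM1 encodes CD133, THY1 encodes CD90, a surface protein of fibroblasts and mesenchymal cells, and KIT is the receptor tyrosine kinase for stem cell factor. ALDH1A1 and ALDH1A3 oxidise retinal to retinoic acid and account for much of the aldehyde dehydrogenase activity by which stem-like cells are sorted. SOX2 is a transcription factor of pluripotent and neural stem cells. In ovarian cancer these genes are read singly or in pairs to isolate tumour-initiating cells, and CD44 and THY1 are also widely expressed by mesenchymal cells. In bulk RNA, fewer cells of a type and less RNA per cell cannot be told apart.

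The probes that the results turn on are shown here by the first 30 of their 60 bases, which fixes what each value measured. Positions are those of the whole probe in hg19, as the scanner files give them. Whether a probe lies in an exon or a UTR was not analysed here.
CD44, A_23_P24870, chr11:35250934-35250993, plus strand: gggagctgggacacttaacagatgcaatgt
CD24, A_23_P85250, chrY:21152818-21152877, minus strand: ctgcctcgacacacataaacctttttaaaa
THY1, A_23_P36364, chr11:119288971-119289030, minus strand: ttctcaggaaatggcttttcccaaccccca
ALDH1A3, A_23_P205959, chr15:101456503-101456562, plus strand: atatagacactaaccttgatagtgatacgt
ALDH1A3, A_24_P917280, chr15:101421497-101421556, plus strand: gtagttttatttgtaatatcagcttcagag
KIT, A_23_P110253, chr4:55606511-55606570, plus strand: aaagtggttgttagttatagatgtctaggt
EPCAM, A_23_P91081, chr2:47613894-47613953, plus strand: tcaaaatataagcagcttgaaactggcttt

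The scanner files place the CD24 probe on chromosome Y, whereas RefSeq (GRCh38.p14) gives the gene on chromosome 6. CD24 has near-identical copies in the genome, and the probe may not tell their RNAs apart, which was not analysed here. The ALDH1A3 probes lie at separate places of chromosome 15, and they did not read alike, as described below.

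On the SKOV3 arrays the Cy5 channel was dim, with a median net intensity of 9.52 to 25.5 against 373 to 530 in Cy3, and on the A2780s arrays both channels were bright, at 325 to 568. Each cell line had its own slide and scan, and these cannot be told apart from the line. The paper selected the sh clones for inhibited Hic-5 expression, measured by quantitative and semi-quantitative PCR and by Western blot. On these arrays TGFB1I1 did not follow its label in SKOV3. In Cy5 its probe read 57.4 in sh-S1 and 55.7 in sh-S2, against a local background of 49 and 42.5. Its log2 ratio over Ctrl was -0.16 and 0.12 on the arrays of sh-S1 and -0.12 and 0.28 on those of sh-S2, with a mean of 0.03 (adjusted p = 0.855, limma), so the directions given below for sh-S1 and sh-S2 take the labels as given. In A2780s its log2 ratio was 4.05 and 2.60, a mean of 3.33 or 10.0-fold. Its mean level in A2780s Ctrl, 12.78, was above the 8.23 of SKOV3 Ctrl. The A2780s Ctrl channels differed, at 11.83 in Cy3 and 13.74 in Cy5, and those of SKOV3 Ctrl ran from 7.79 to 8.56. By Western blot, which reads protein, the paper found rather low Hic-5 in A2780s and strong expression in SKOV3. Of 7 epithelial markers, keratins and MUC1 among them, 5 were well above background in SKOV3 Ctrl and 5 in each A2780s RNA. So were 5 of 6 leukocyte markers in SKOV3 Ctrl and 6 of 6 in each A2780s RNA, and 4 of 5 fibroblast markers in each. Of 5 endothelial markers it was 1 in SKOV3 Ctrl and 3 in each A2780s RNA. Being above background is therefore a weak sign of expression.

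CD44 was 13.3-fold lower in the RNAs labelled as the SKOV3 sh clones than in Ctrl, CD24 had log2 ratios of -5.29 to -3.01 on the arrays that measured it, and ALDH1A3 was 2.20-fold lower by the brighter of its probes, while THY1 was 2.74-fold higher. KIT was lower on all 4 arrays, 2 of them past 2-fold, with a mean short of 2-fold. PROM1 and SOX2 lay close to Ctrl, with probes that were well above background in 2 of 4 channels of the clones. In A2780s 6 of the 9 genes were measured, and none of these passed the rule for a change in either direction.

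Of the 11 probes, 5 passed the filter on dim probes in SKOV3 and were measured in both dye orientations of both clones. Of these 5, 1 was called higher and 2 lower by the rule for SKOV3 (adjusted p ≤ 0.05 and 2-fold or more), against a background of 7.14% called in either direction, 2.98% higher and 4.16% lower, among all 24958 probes tested. A probe can pass the filter through the RNA in which it is bright, so these counts describe the probes and carry no test. The p-values come from limma on the clone means, with Benjamini-Hochberg adjustment over all probes tested. They rest on the spread between the clones, which limma draws toward a variance shared over all probes tested. The standard error was 0.093 for KIT and 0.097 for THY1, although their SD between clones was 0.015 and 0.110. The spread of the Ctrl, of which there was 1 RNA, is not in them.

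**Figure D1:**
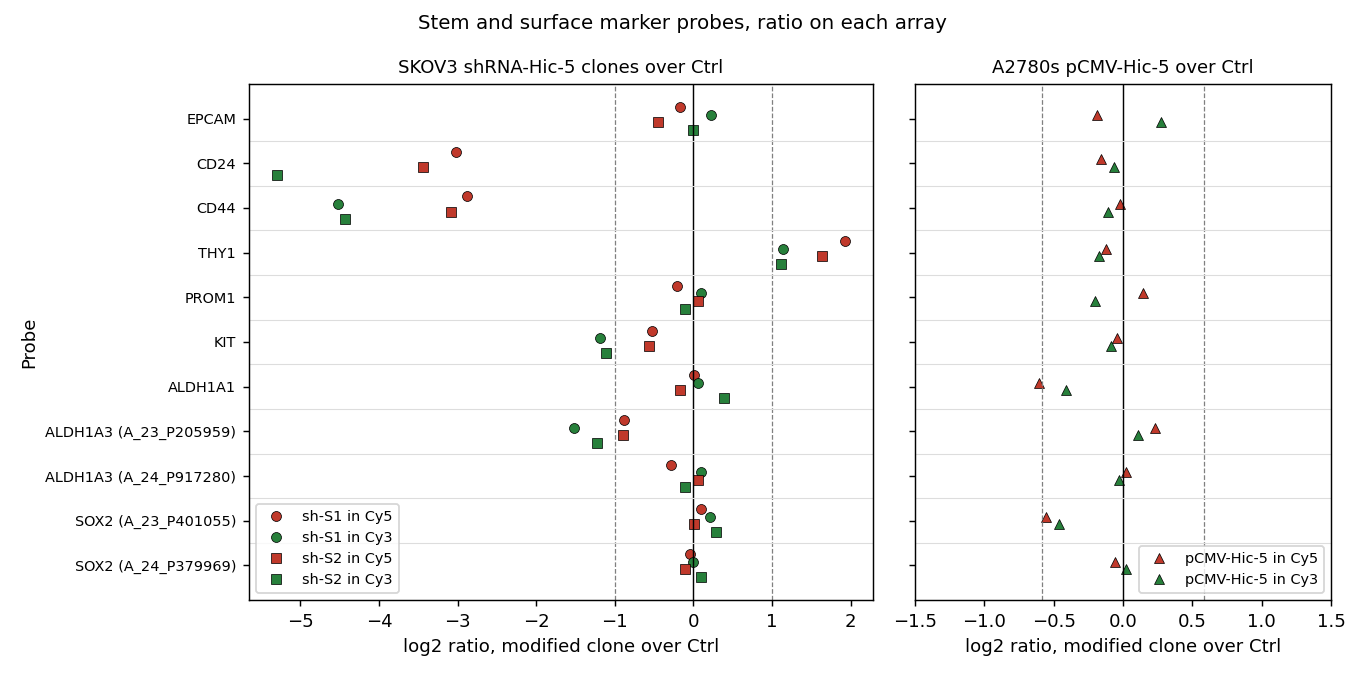
Log2 ratio of modified clone over Ctrl (horizontal axis) on each array for the 11 marker probes, with SKOV3 on the left and A2780s on the right; colour gives the dye of the modified clone, and dashed lines mark 2-fold on the left and 1.5-fold on the right. CD24 and CD44 lie at -2.88 or lower on every SKOV3 array that measured them and THY1 at 1.12 or higher, while in A2780s every point lies between -0.61 and 0.28.

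CD44, the hyaluronan receptor, had a log2 ratio in sh-S1 of -2.88 where the clone was labelled with Cy5 and -4.52 after the dye swap. For sh-S2 the corresponding values were -3.09 and -4.44. The clones thus lay close to each other, and the ratio was larger in size where the clone was read in Cy3. The mean over the clones was -3.73 ± 0.04 (SD, n = 2), or 13.3-fold lower (adjusted p = 2.58e-06, limma). On the array with sh-S1 in Cy5, 8 spots were used and their ratios ran from -3.11 to -2.66, with an SD of 0.14. On the array with sh-S2 in Cy3, the 10 spots ran from -5.37 to -3.77, with an SD of 0.63. No spot of a SKOV3 array came near a ratio of 0.

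In channel levels, which are log2 intensities after loess and Aquantile normalization over the 6 arrays, CD44 lay at 12.81, 12.64, 12.74 and 12.59 in SKOV3 Ctrl. In sh-S1 it lay at 9.93 in Cy5 and 8.11 in Cy3, and in sh-S2 at 9.65 in Cy5 and 8.15 in Cy3. A2780s Ctrl had 6.68 and 6.84 and pCMV-Hic-5 had 6.66 and 6.74, where the probe passed the background flag on 1 of 2 arrays per RNA. The order was therefore SKOV3 Ctrl, then the SKOV3 sh clones, then the A2780s RNAs, and within the latter pairs the ranges overlapped. A pair of further probes, A_24_P919538 and A_24_P919640, is described on the array as soluble variants of CD44 and falls outside the rule used here. They were looked at after the CD44 values were seen. The first had a mean log2 ratio of -0.07 in SKOV3 (adjusted p = 0.672, limma), with ratios from -0.55 to 0.38 on the single arrays, and the second ran from -0.10 to 0.11 and was not tested.

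**Figure D2:**
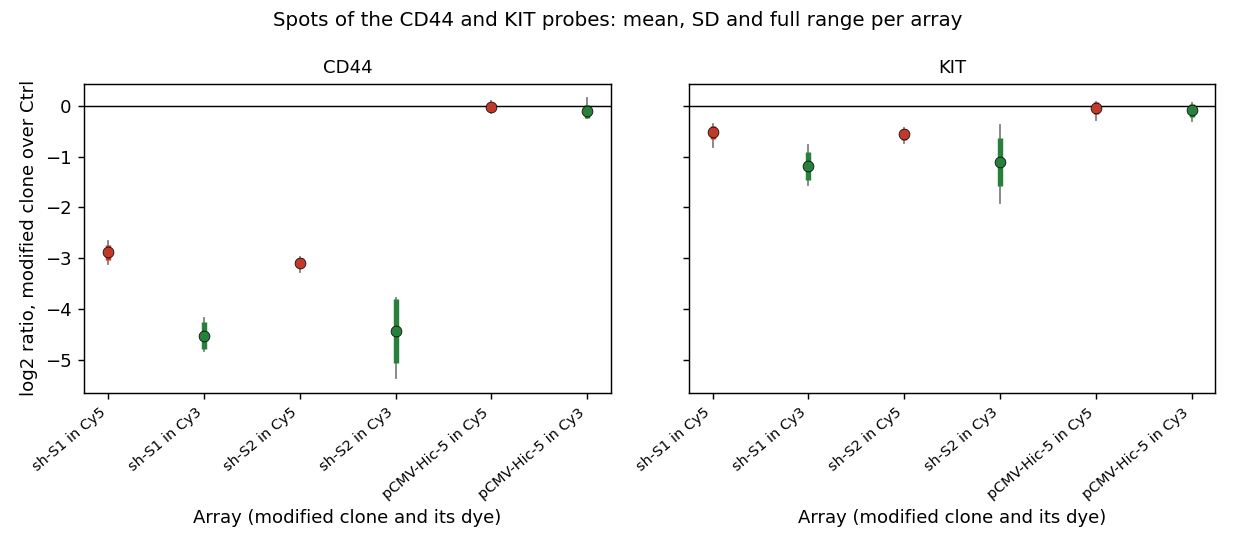
Log2 ratio of modified clone over Ctrl (vertical axis) at the spots of the CD44 and KIT probes on each of the 6 arrays; points are means, thick bars the SD over spots and thin lines the full range, with red for the modified clone in Cy5 and green for Cy3. The CD44 spots run from -5.37 to -2.66 on the SKOV3 arrays and the KIT spots from -1.92 to -0.35, and both centre near 0 on the A2780s arrays.

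CD24 had 1 spot on each array. Its log2 ratio was -3.01 for sh-S1 labelled with Cy5, and for sh-S2 it was -3.44 labelled with Cy5 and -5.29 labelled with Cy3. On the array with sh-S1 in Cy3 the scanner software flagged the spot as non-uniform in Cy5, so it was left out and CD24 was not tested as planned. With that spot kept, a choice made after the data were seen, its ratio was -4.82, and the mean over the clones was -4.14 ± 0.32 (SD, n = 2; adjusted p = 6.04e-06, limma), in a fit where 7.23% of 25161 probes were called. As scanned, the Cy3 intensity of the probe was 25179 and 23741 in SKOV3 Ctrl against 732 in sh-S1 and 1028 in sh-S2. In Cy5, which was dim, it was 73.5 and 73.8 in the clones against 2656 in Ctrl on the unflagged array. CD24 was thus far below Ctrl in both dyes.

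Among the 5 RNAs, CD24 had its highest level in SKOV3 Ctrl, at 13.27, 13.38 and 14.01 on the 3 arrays with a value. It lay at 10.26 in sh-S1, from the single usable array, and at 8.72 and 9.94 in sh-S2. The lowest levels were those of A2780s Ctrl, 7.44 and 7.46, and of pCMV-Hic-5, 7.30 and 7.38. The ranges of neighbouring RNAs in this order did not overlap, but sh-S1 has a single value. The range of its means over the RNAs, 6.21, was the widest of the 11 probes, followed by CD44 with 5.99, KIT with 1.79 and THY1 with 1.60.

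THY1, which encodes CD90, had log2 ratios of 1.93 and 1.14 in sh-S1 and of 1.63 and 1.12 in sh-S2, in Cy5 and Cy3. All 4 arrays were therefore above 2-fold. The mean over the clones was 1.45 ± 0.11 (SD, n = 2), or 2.74-fold higher (adjusted p = 9.26e-05, limma). With sh-S2 left out and the arrays of sh-S1 taken as the units, the value was 1.53 and the adjusted p 0.0678 (limma), which missed the threshold. In Cy3 the scanned intensity was 2089 and 1779 in Ctrl against 5159 in sh-S1 and 5893 in sh-S2. SKOV3 Ctrl had the lowest level of the 5 RNAs, from 9.56 to 10.32, and the other RNAs lay between 10.97 and 11.56.

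ALDH1A3, which makes retinoic acid, had log2 ratios of -0.89 and -1.52 in sh-S1 and of -0.90 and -1.23 in sh-S2 by the probe A_23_P205959. The arrays with the clone in Cy5 were short of 2-fold and those with it in Cy3 were past it. In Cy5 the scanned intensity was 49.2 in sh-S1 and 56.5 in sh-S2, against a local background of 46 and 48. The size of the ratios with the clone in Cy5 therefore rests on readings near background. The mean over the clones was -1.14 ± 0.10 (SD, n = 2), or 2.20-fold lower (adjusted p = 2.54e-04, limma). Left without sh-S1 the adjusted p was 0.0771 and without sh-S2 it was 0.0878. The probe was well above background in 4 of 4 channels of Ctrl and 3 of 4 of the clones. Its level ran from 8.60 to 9.65 in SKOV3 Ctrl and from 7.28 to 8.76 in the clones, so that the channels overlapped. By the other probe, A_24_P917280, the ratios were -0.28, 0.10, 0.06 and -0.11. That probe was well above background in 1 of 4 channels of Ctrl and 0 of 4 of the clones, so no change could be read from it.

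ALDH1A1, the related enzyme most used as a stem cell marker, was dim in SKOV3. It rose well above background in 1 of 4 channels of the clones and 0 of 4 of Ctrl, with log2 ratios of 0.01, 0.05, -0.16 and 0.39. Its level lay between 6.04 and 6.64 in every SKOV3 channel. No change was detectable at this signal.

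KIT, the receptor for stem cell factor, had log2 ratios of -0.52 and -1.19 in sh-S1 and of -0.56 and -1.11 in sh-S2. It was lower than Ctrl on each array, by more where the clone was read in Cy3. The mean over the clones was -0.84 ± 0.01 (SD, n = 2), or 1.79-fold lower, with an adjusted p of 7.75e-04 (limma), which passed the p threshold and not the fold. On the processed signals of the scanner software it reached -2.26 and was called. Over the 10 spots with sh-S1 in Cy5 the ratios ran from -0.81 to -0.35, and over the 9 used with sh-S2 in Cy3 from -1.92 to -0.37. The KIT level was 8.15 to 9.08 in SKOV3 Ctrl, 7.25 and 8.55 in sh-S1, and 7.04 and 8.34 in sh-S2, with ranges that overlapped.

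EPCAM, the epithelial adhesion molecule, had log2 ratios of -0.17, 0.22, -0.45 and -0.01 on the SKOV3 arrays, and it was not tested because it was well above background in 2 of 4 channels of the clones and 2 of 4 of Ctrl, those read in Cy3. In Cy3 the scanned intensity was 609 and 534 in Ctrl against 176 in sh-S1 and 203 in sh-S2, whereas in Cy5 every SKOV3 reading lay between 43.7 and 53.0, against a local background of 41.5 to 51. The Cy3 readings thus separated the RNAs and the Cy5 readings did not.

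PROM1, which encodes CD133, had log2 ratios of -0.21, 0.10, 0.06 and -0.10, with a mean of -0.04 (adjusted p = 0.818, limma). Its probe was well above background in 4 of 4 channels of Ctrl and 2 of 4 of the clones. SOX2 had ratios of 0.09, 0.21, 0.01 and 0.29 by the probe A_23_P401055 and of -0.04, 0.00, -0.11 and 0.09 by A_24_P379969. Neither SOX2 probe was tested, since each passed the background flag in 2 of 4 channels of the clones and 2 of 4 of Ctrl. A long noncoding transcript, SOX2-OT, overlaps SOX2, and an array probe cannot separate the RNAs where they overlap.

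Because Cy5 was dim, the SKOV3 RNAs were also compared in Cy3 alone after quantile normalization. Each clone was set against the mean of Ctrl over the arrays that carried Ctrl in Cy3. Both clones share that mean, which the p-values do not take into account. This comparison was added after the data were seen, and it called 11.2% of 38009 probes. CD44 was 25.0-fold lower (log2 -4.65, adjusted p = 8.11e-09, limma), CD24 24.3-fold lower (-4.60, adjusted p = 8.11e-09, limma) and ALDH1A3 5.10-fold lower (-2.35, adjusted p = 3.89e-07, limma). KIT reached 3.98-fold (-1.99, adjusted p = 1.70e-06, limma) and EPCAM 2.36-fold lower (-1.24, adjusted p = 6.46e-05, limma), both past the threshold that they missed, or were not tested for, in the ratios. THY1 was 3.39-fold higher (1.76, adjusted p = 5.17e-06, limma). PROM1 (0.11) and the SOX2 probes (0.11 and 0.02) were not called. Array and RNA cannot be told apart in a single channel.

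**Figure D3:**
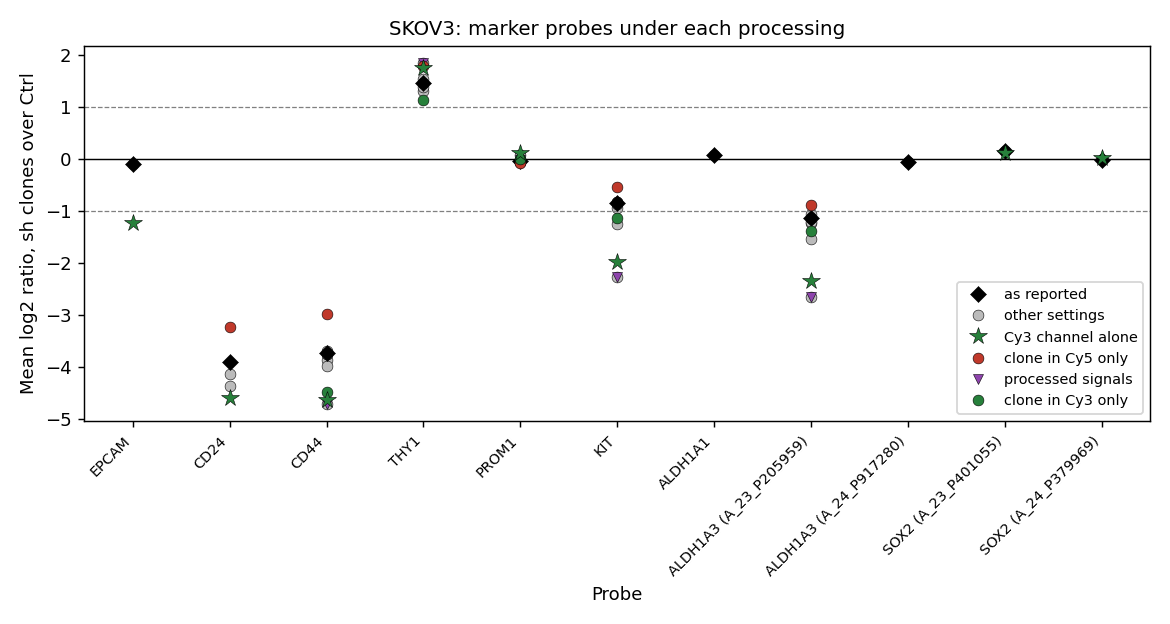
Mean log2 ratio of the SKOV3 sh clones over Ctrl (vertical axis) for each marker probe under the processing reported and under each alternative that gave a value; dashed lines mark 2-fold. CD24 and CD44 stay at -2.98 or lower and THY1 at 1.13 or higher throughout, while KIT runs from -2.26 to -0.54 and ALDH1A3 from -2.65 to -0.89 and cross the 2-fold line.

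In A2780s there is 1 clone and no test, and a change was called at a mean ratio of at least 1.5-fold in the same direction on both arrays. Of the 11 probes, 7 passed the filter, covering 6 genes, and 0 were called, against 4.58% of 30531 probes in either direction, 3.26% higher and 1.32% lower. ALDH1A1 came closest, with log2 ratios of -0.61 and -0.41 (mean -0.51, 1.42-fold lower). SOX2 had -0.56 and -0.46 by the probe A_23_P401055 (mean -0.51, 1.42-fold lower) but -0.06 and 0.02 by A_24_P379969. Both ALDH1A1 and the first SOX2 probe passed the background flag in 2 of 2 channels of Ctrl and 1 of 2 of pCMV-Hic-5. On the processed signals of the scanner software they were at -1.25 and -1.04 and were called lower.

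The genes that differed most in SKOV3 lay close to Ctrl in A2780s. CD24 had log2 ratios of -0.16 and -0.06, THY1 -0.12 and -0.17, and ALDH1A3, by its brighter probe, 0.23 and 0.11. EPCAM had -0.19 and 0.28. CD44, KIT and PROM1 passed the background flag in 1 of 2 channels of each A2780s RNA and were not measured by the filter, with ratios between -0.20 and 0.14. In Cy3 alone PROM1 differed by 1.09, at 6.62 in Ctrl and 7.71 in pCMV-Hic-5, which were read on different arrays. Within arrays its levels lay close, at 6.57 in Ctrl and 6.71 in pCMV-Hic-5 on one and 7.59 and 7.39 on the other. Whether the ratios in SKOV3 and A2780s differ was not tested, since A2780s has 1 clone.

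**Figure D4:**
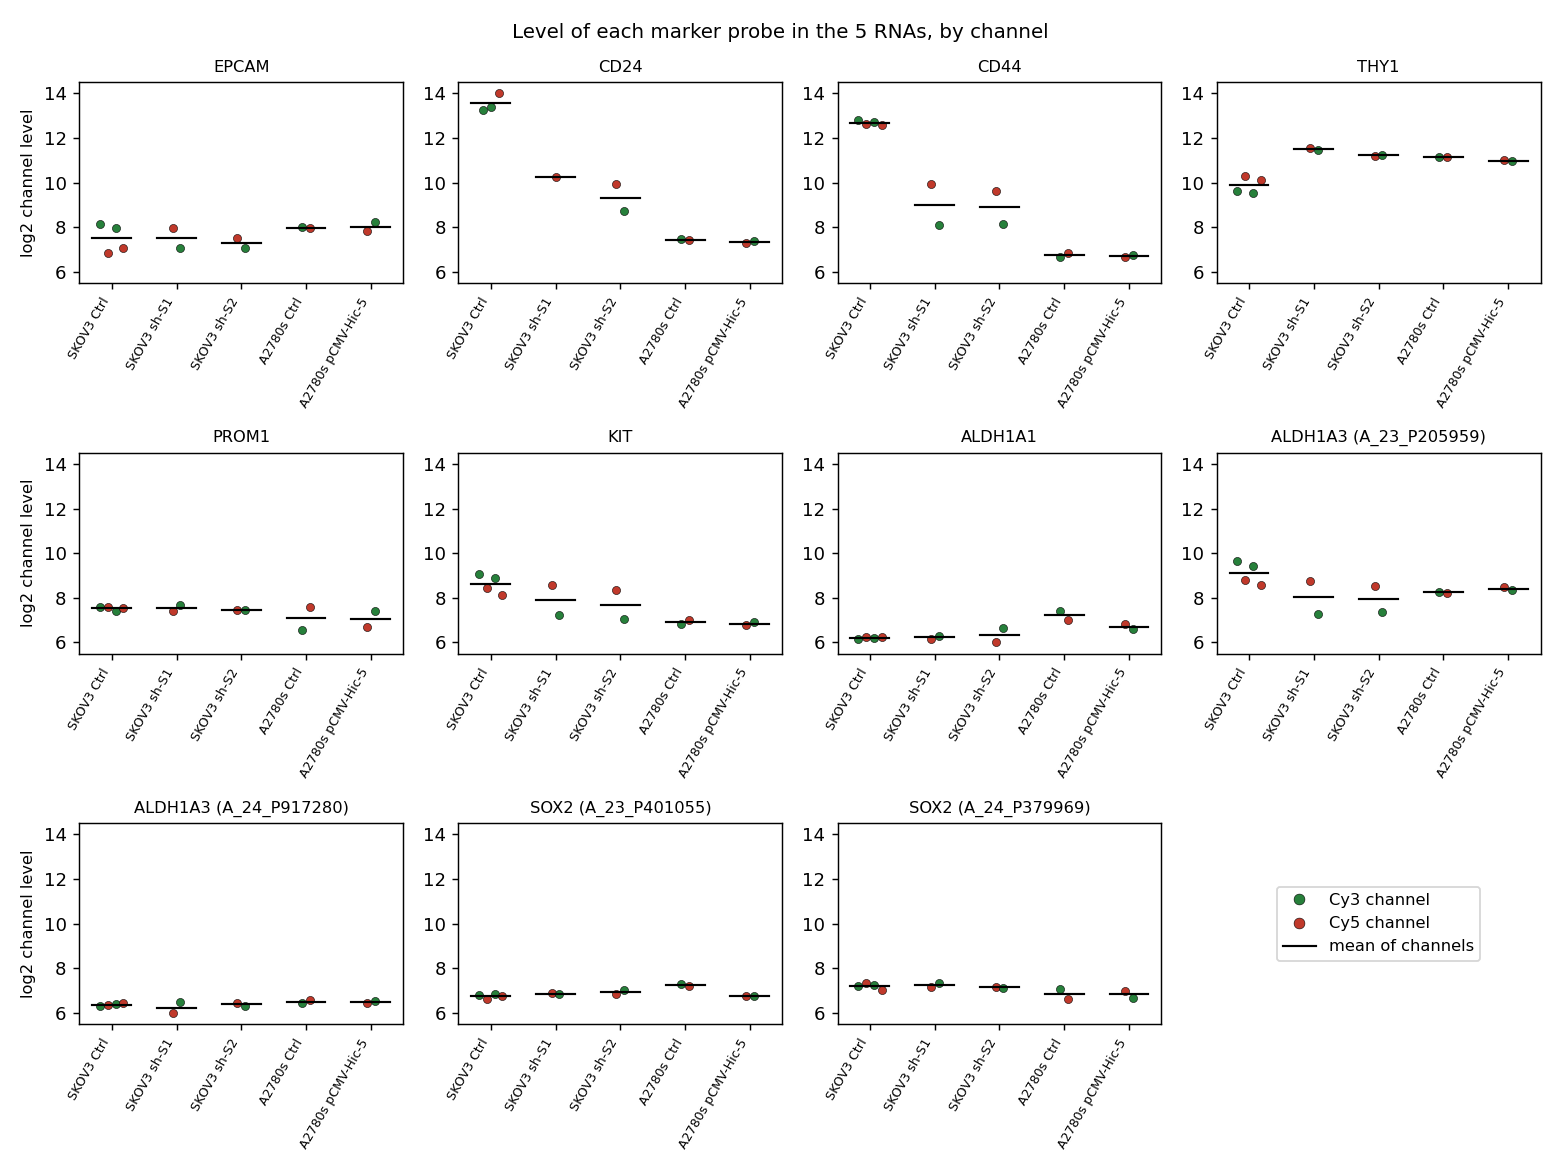
Log2 channel level (vertical axis) of each marker probe in the 5 RNAs; points are single channels, green for Cy3 and red for Cy5, and black lines are means. CD24 and CD44 fall from SKOV3 Ctrl over the sh clones to the A2780s RNAs, THY1 is lowest in SKOV3 Ctrl, and ALDH1A1 has its highest mean in A2780s Ctrl, at 7.21.

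Between the Ctrl RNAs of the cell lines, the mean level of CD24 was higher in SKOV3 by 6.10 and that of CD44 by 5.93 on the log2 scale, with ranges that did not overlap. CD44 and KIT were well above background in 1 of 2 channels of A2780s Ctrl, so their differences rest in part on a level not above background. KIT was higher in SKOV3 by 1.72, also with separate ranges (8.15 to 9.08 in SKOV3, 6.84 and 6.99 in A2780s). THY1 differed by -1.23, that is, it was higher in A2780s. ALDH1A1 had a mean level of 6.21 in SKOV3 Ctrl, where 0 of 4 channels were well above background, and 7.21 in A2780s Ctrl. The SOX2 probe A_23_P401055 was at 7.22 and 7.30 in A2780s Ctrl and between 6.65 and 7.04 in every other RNA. The other SOX2 probe, A_24_P379969, went the opposite way, with a mean of 7.21 in SKOV3 Ctrl and 6.85 in A2780s Ctrl. Each SOX2 probe was well above background in 2 of 4 channels of SKOV3 Ctrl. EPCAM and PROM1 had overlapping ranges in neighbouring RNAs all along the order. Without normalization between arrays, 3 of the 11 probes were higher in SKOV3 Ctrl, against 6 with it, and CD24, CD44 and KIT were among them in both. The differences were then 4.56 for CD24, 4.71 for CD44, 0.92 for KIT and -4.15 for THY1, and that of ALDH1A3 by its brighter probe turned from 0.88 to -0.73. The sizes given between the lines therefore depend on that normalization.

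CD24 and then CD44 had the widest ranges among the RNAs, so other named genes were ranked by how closely their centred levels followed each of them. Likeness was the root mean square difference of centred log2 levels over the channels, 10 for CD24, whose flagged array was left out, and 12 for CD44. For CD24 the closest were C15orf52 (0.19), GNG11 (0.20), MT1B (0.24), MT1E (0.27) and PRKCDBP (0.30). GNG11 encodes a G protein subunit, and MT1B and MT1E are metallothioneins, members of a family of near-identical genes whose probes may cross-react. For CD44 they were EDN1 (0.20), which encodes endothelin, GNG11 (0.20), ARHGAP29 (0.26), PMEPA1 (0.28) and IAH1 (0.31). The channels share RNAs and dyes, so these are descriptions, and the CD44 ranking was added after the data were seen.

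The genes that work with these markers were read from lists, each gene by its brightest tested probe, against 7.94% called among 18923 genes in SKOV3 and 4.88% among 22106 in A2780s. The lists were written with earlier results of these data known, so their counts carry no test. Of 13 tested genes of the hyaluronan and CD44 axis, 0 were called higher and 4 lower in SKOV3, with a median log2 ratio of -0.30 against 0.00 over all genes. SPP1, which encodes the CD44 ligand osteopontin, was at -4.29 (adjusted p = 2.58e-06, limma). EZR and MSN, which encode ezrin and moesin, the linkers between CD44 and the actin cytoskeleton, were at -3.20 and -1.997 (adjusted p = 4.32e-06 and 1.96e-05, limma). VCAN, a proteoglycan that binds hyaluronan, was at -1.57 (adjusted p = 7.52e-05, limma). Other probes of EZR (-2.21) and MSN (-0.72 and -0.29) gave smaller ratios, and those of MSN were not called. The third linker of that family, radixin (RDX), was at 0.08 (adjusted p = 0.614, limma) and is named for comparison after its value was seen. In A2780s, 1 of 15 was called, SPP1 at -1.94.

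Of 12 genes of KIT signalling tested in SKOV3, 0 were called higher and 1 lower, MITF, a transcription factor downstream of KIT, at -1.41 (adjusted p = 3.99e-04, limma), and the median was 0.05. The other MITF probes were at -1.48, -0.27 and -0.05. KITLG, the ligand of KIT, named after its value was seen, was at -0.91 (adjusted p = 0.0160, limma), short of 2-fold. In A2780s 2 of 14 genes of that list were called lower, PIK3CA at -0.66 and PTPN11 at -0.62, the latter with other probes from -0.13 to 0.17.

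Of 14 other aldehyde dehydrogenases, 1 was called higher in SKOV3 and 0 lower, with a median of 0.00. It was ALDH2, the mitochondrial enzyme that oxidises acetaldehyde, at 3.02 (adjusted p = 2.15e-05, limma). Of 13 genes of the retinoic acid pathway, 2 were called higher and 1 lower, with a median of 0.12. RDH10, which makes the retinal that ALDH1A enzymes use, was at 3.85 (adjusted p = 2.58e-06, limma), and CRABP2, which carries retinoic acid to its receptors, was at 1.45 (adjusted p = 7.51e-05, limma). FABP5, another carrier, was at -1.88 (adjusted p = 2.74e-05, limma). The other probe of ALDH2 (1.39) and that of RDH10 (1.42) were also called higher, and those of FABP5 lower, from -1.39 to -1.15. In A2780s, ALDH1L2 was called higher at 1.06, with another probe at 0.10, and FABP5 lower at -0.75, 1 of 15 tested genes in each list.

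Stem cell factors were called in both directions in SKOV3, 3 higher and 5 lower of 17 tested genes, with a median of 0.01. Higher were SALL4 (2.55, adjusted p = 1.16e-05), a pluripotency factor, FZD7 (1.75, adjusted p = 3.45e-05), a Wnt receptor, and NES (1.48, adjusted p = 5.40e-04), the filament protein nestin, all by limma. The 4 lower genes of largest size were PAX8 (-3.58, adjusted p = 2.85e-06) and SOX17 (-2.88, adjusted p = 1.52e-05), factors of the Müllerian lineage, JAG1 (-2.09, adjusted p = 3.47e-05), a Notch ligand, and POU5F1 (-1.20, adjusted p = 1.85e-04), by limma. POU5F1 has near-identical pseudogenes, and its probe may read them. JAG1 was well above background in 2 of 4 channels of the clones and POU5F1 in 3 of 4, against 4 of 4 of Ctrl for each. Other probes of SOX17 (0.09) and POU5F1 (-0.07) were not called. In A2780s 0 of 20 were called.

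Of 8 mesenchymal stem cell surface genes, 1 was called higher and 3 lower in SKOV3, with a median of 0.02. CD248 (endosialin) was at 1.78 (adjusted p = 4.98e-04, limma), whereas ITGB1 at -1.85, ALCAM at -1.23 and NT5E at -1.17 had adjusted p of 3.08e-05, 1.52e-04 and 6.51e-04 (limma). The other ITGB1 probe was also lower (-1.59), and the other probes of ALCAM (-0.32) and NT5E (-0.24 and -0.44) were not called. The named probe of NT5E was well above background in 2 of 4 channels of the clones and 4 of 4 of Ctrl. In A2780s, 2 of 8 were called lower, PDGFRA at -0.83 and ITGB1 at -0.68, the latter by a different probe than in SKOV3, while the other ITGB1 probes were at -0.53 and -0.45 and not called. THY1, which is used with these genes, thus went the way of CD248 and not of the other called genes in SKOV3.

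**Figure D5:**
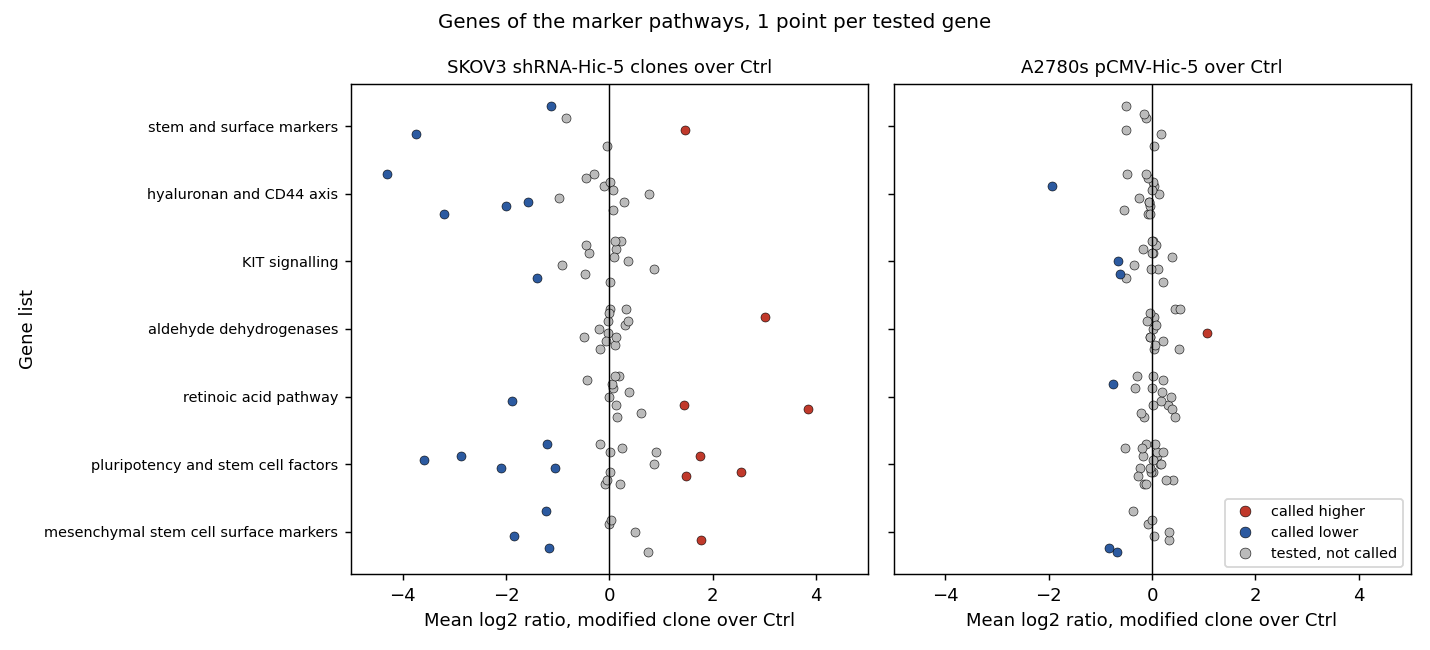
Mean log2 ratio of modified clone over Ctrl (horizontal axis) for each tested gene of the stem and surface markers and of the related lists, 1 point per gene, in SKOV3 on the left and A2780s on the right; colour gives the call. In SKOV3 the called genes run from -4.29 (SPP1) to 3.85 (RDH10), and in A2780s the only called gene past a log2 ratio of 1.5 in size is SPP1 at -1.94.

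Epithelial, fibroblast, leukocyte and endothelial markers were read beside these. Of 6 tested epithelial markers, 4 were called lower in SKOV3 and 0 higher, KRT18 (-3.53), KRT19 (-2.55), KRT7 (-2.20) and KRT8 (-2.14), of which KRT18 and KRT8 have many pseudogenes. The other KRT18 probes were also lower, and those of KRT8 were at -1.54 and -0.38, the latter not called. In A2780s 1 of 4 was called, KRT18 at 0.59, with other probes from -0.10 to 0.76. Of 4 tested fibroblast markers, 1 was called higher in SKOV3 and 0 lower. It was COL3A1 at 3.65 (adjusted p = 7.50e-06, limma), while COL1A1 (-0.14), COL1A2 (0.16) and DCN (0.07) were not called. Of 5 leukocyte markers and 1 endothelial marker tested, 0 were called by limma's adjusted p and the fold. At an unadjusted p of at most 0.05 (limma) there was 1 in each, beside 1 of 4 fibroblast markers and 11 of 17 stem cell factors. The share of all probes at that unadjusted p was not computed, so these counts are no result about the markers. The RNAs came from clones of cultured lines. How these markers relate to the values of CD44, CD24 and THY1 was not tested.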

How the data were processed

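RNA of each modified clone and its Ctrl was hybridized on Agilent 2-colour arrays, 6 in all. The authors deposited spot and local background intensities of each dye, not normalized, as Feature Extraction wrote it (version 8.5.1.1 per the labels, 10.7.3.1 per the file headers). They also deposited processed intensities and log10 ratios of Cy5 over Cy3, which are not turned on dye-swapped arrays. Background was corrected by normexp (limma 3.58.1, R 4.3.3) with an offset of 50, its parameters fitted without background-flagged spots and spots with a local background over 1000, and 39 blemished spots of 1 A2780s array were left out. Ratios were normalized by loess within each array, control and outlier-flagged spots were left out, spots of a probe were averaged, and each ratio was expressed as log2 of modified clone over Ctrl. Channel levels were normalized between arrays by Aquantile. A probe was tested if it was well above background in Ctrl on all arrays of the line or in both channels of a clone. In SKOV3 the clone means were tested against 0 with lmFit and eBayes and Benjamini-Hochberg adjustment over all tested probes. The scripts were tested on simulated data with known changes. The number of arrays and the signal over background limit the precision. Arrays give no count of molecules.

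The marker genes, the lists and the tests were chosen with earlier results of these data known. All marker probes were named, and from the other lists at most 4 called genes per direction, the largest first. The list of partners of EPCAM and CD24 is not reported here by itself, and its genes are within the counts over all listed genes. Names are those of the array. Alternatives tried were the processed intensities, no background correction, normexp on all spots, median centring, no filter on dim probes, each dye orientation, the deposited log10 ratios, each SKOV3 clone left out, arrays as units with duplicateCorrelation, outlier-flagged spots kept and Cy3 alone, and for levels other normalizations between arrays.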

Additional observations from a re-analysis of the deposited data

How the results depend on the processing

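The directions of CD44, CD24 and THY1 in SKOV3 were the same under every alternative that gave a value, with CD44 between -4.72 and -2.98, CD24 between -4.60 and -3.23 and THY1 between 1.13 and 1.85 on the log2 scale. The count of marker probes called in SKOV3 was 1 higher and 2 lower as reported. It ranged from 0 to 1 higher and from 1 to 2 lower when either clone was left out, since THY1 and ALDH1A3 lost the adjusted p without sh-S2 and ALDH1A3 without sh-S1, where CD24 became testable and was called. In Cy3 alone 5 were called lower. PROM1, at -0.04 and not called, was at 0.0803 with median centring and 0.11 in Cy3 alone. KIT passed the 2-fold threshold on the processed signals (-2.26), the deposited log10 ratios (-2.26), median centring (-1.25), the arrays with the clone in Cy3 (-1.15) and Cy3 alone (-1.99). In A2780s, 0 marker probes were called as reported, 2 lower on the processed signals and on the deposited log10 ratios, 1 lower where the clone carried Cy5, and 1 higher and 1 lower in Cy3 alone. Of the other listed genes in SKOV3, 8 were higher and 19 lower as reported, 13 higher with the clone in Cy3 or in Cy3 alone, and 6 to 7 higher and 11 to 15 lower without one clone. In A2780s, 2 of these were higher and 6 lower as reported. On single arrays 12 were lower where the clone carried Cy5, and 5 were higher and 3 lower after the swap. Reading Cy3 alone gave 10 higher and 11 lower calls. With normexp on all spots 1 was higher, and by the mean over a gene's probes 0. Among all genes tested, 7.94% were called in SKOV3 and 4.88% in A2780s as reported. Calls over all probes, given below, also shifted with the setting, so these counts are no result about the listed genes. Without normalization between arrays 3 marker probes were higher in SKOV3 Ctrl than in A2780s Ctrl, against 6. Over all probes, 743 higher and 1038 lower calls in SKOV3 became 1971 and 2356 on the processed signals, 1963 and 2354 on the deposited ratios, 1935 and 2307 in Cy3 alone, 272 and 376 without sh-S2 and 433 and 657 without sh-S1. Median centring gave 1578 lower and the clone in Cy3 1222 higher. In A2780s, 994 and 403 became 3629 and 3497 in Cy3 alone and 1797 and 1519 where the clone carried Cy5. Lower calls there were 700 on the processed signals, 698 on the deposited ratios and 214 with the clone in Cy3. Leaving out one clone leaves the 2 arrays of the other as units, so the test then holds no spread between clones. The cause of these changes was not tested. Clone and Ctrl were paired within each array through the ratio. No further pairing was possible, because the replicate numbers name clones of SKOV3 and A2780s has 1 clone. Signal over background limits EPCAM, ALDH1A1, SOX2 and the second ALDH1A3 probe in SKOV3, where none passed the background flag in more than 2 of 4 channels of either Ctrl or the clones. It also limits PROM1, which passed that flag in 4 of 4 channels of Ctrl and 2 of 4 of the clones.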
